A study of Mus musculus with 20 samples.

Results

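Transcripts of 10 circadian clock genes were followed in CD4 T cells of mouse spleen and lymph nodes. They were the period genes Per1, Per2 and Per3, the cryptochromes Cry1 and Cry2, the activator Arntl, the nuclear receptors Nr1d1 and Nr1d2, the output factor Dbp and the repressor Bhlhe40. The genes were taken by symbol, whatever their level, among the 22068 symbols of a table of read counts. All 10 passed the filter on low counts, which left 13309 genes. Every cell came from C57BL/6 mice aged 8 to 12 weeks with a Foxp3-GFP reporter, which marks regulatory T cells (Treg). Fresh CD5lo and fresh CD5hi cells were naive CD4 T cells (TCRb+, CD4+, CD8-, Foxp3-GFP-, low CD44). They came from the 15% with the lowest and the 15% with the highest surface CD5 and were lysed at once. Rested CD5lo and rested CD5hi cells were sorted in the same way and then kept for 22 h in dissociated culture with interleukin 7 (IL-7) at 10 ng/mL, which the series describes as removing contact with self-peptide on MHC. Treg were sorted as Foxp3-GFP+ cells and lysed at once. The sort of every group left out CD69+ cells and cells with surface markers of B, NK, dendritic, myeloid and granulocytic cells. Each of the 5 groups had 4 libraries, which the labels call biological replicates. CD5 restrains signalling from the T cell receptor, and naive cells that bind self-peptide more strongly carry more of it. The hour at which cells were taken or lysed is not given in the sources used here, and no naive cells were cultured for another length of time. Culture, IL-7, loss of self contact and the hour of the day therefore cannot be told apart in the rested groups.

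The clock is a loop of transcription that runs once a day in nearly every cell, T cells included. ARNTL (also called BMAL1) pairs with CLOCK and binds E-box sequences to switch on the Per, Cry, Nr1d and Dbp genes. PER and CRY proteins return to the nucleus and block that pair. NR1D1 and NR1D2 (REV-ERB alpha and beta) repress Arntl and other genes through ROR response elements, at which the ROR factors activate. DBP and its relatives activate through D-boxes, where NFIL3 represses. BHLHE40 (DEC1) competes for E-boxes and is best known in T cells as a regulator of cytokine genes that activation induces. Per1 and Per2 can also be induced acutely, through CREB.

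Start-site windows in RefSeq hold some of these elements. The RefSeq table of mouse promoters (GRCm38.p6, 250 bases before to 50 after the start) had 10 windows for 8 of the 10 genes and none for Per2 or Bhlhe40. Windows of Per3, Cry1, Per1, Arntl and Nr1d1 that held a motif match are shown 5′ to 3′ on the strand of the gene, with the matches in capitals. The window of Cry2 also held a match and is not shown, nor are windows without a match.
Per3 (chr4:151044616-151044915, minus strand): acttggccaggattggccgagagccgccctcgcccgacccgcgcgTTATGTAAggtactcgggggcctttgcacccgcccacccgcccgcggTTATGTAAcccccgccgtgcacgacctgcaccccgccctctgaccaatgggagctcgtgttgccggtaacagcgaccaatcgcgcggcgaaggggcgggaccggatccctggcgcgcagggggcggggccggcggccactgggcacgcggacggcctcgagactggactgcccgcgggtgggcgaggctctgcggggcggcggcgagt
Cry1 (chr10:85185005-85185304, minus strand): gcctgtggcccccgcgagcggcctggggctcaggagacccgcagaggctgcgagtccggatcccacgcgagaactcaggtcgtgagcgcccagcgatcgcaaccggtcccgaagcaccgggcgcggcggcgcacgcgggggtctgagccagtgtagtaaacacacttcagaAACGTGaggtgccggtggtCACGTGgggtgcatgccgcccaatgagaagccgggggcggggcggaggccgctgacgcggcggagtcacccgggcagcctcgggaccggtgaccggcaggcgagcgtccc
Per1, window 1 (chr11:69098699-69098998, plus strand): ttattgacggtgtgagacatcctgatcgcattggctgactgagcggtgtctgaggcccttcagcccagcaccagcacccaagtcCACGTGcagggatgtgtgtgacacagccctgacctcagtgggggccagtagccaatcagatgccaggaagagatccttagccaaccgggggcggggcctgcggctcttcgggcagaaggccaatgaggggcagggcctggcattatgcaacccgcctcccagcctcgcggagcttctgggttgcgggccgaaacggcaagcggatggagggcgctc
Arntl, window 2 (chr7:113207261-113207560, plus strand): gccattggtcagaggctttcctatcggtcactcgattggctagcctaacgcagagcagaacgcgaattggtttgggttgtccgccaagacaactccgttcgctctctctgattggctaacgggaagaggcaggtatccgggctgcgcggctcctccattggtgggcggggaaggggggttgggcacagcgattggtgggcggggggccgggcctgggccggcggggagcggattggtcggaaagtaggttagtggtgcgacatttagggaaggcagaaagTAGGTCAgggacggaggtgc
Nr1d1 (chr11:98775328-98775627, minus strand): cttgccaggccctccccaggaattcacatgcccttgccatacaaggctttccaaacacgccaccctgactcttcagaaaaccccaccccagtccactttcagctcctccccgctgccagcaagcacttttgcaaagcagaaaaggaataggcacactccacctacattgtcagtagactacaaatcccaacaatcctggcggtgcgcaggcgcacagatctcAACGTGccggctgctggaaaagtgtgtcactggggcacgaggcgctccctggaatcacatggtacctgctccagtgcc

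The capitals mark D-boxes in Per3, a variant E-box and an E-box in Cry1, an E-box in Per1, a ROR element core in Arntl and a variant E-box in Nr1d1. The words searched on both strands were the E-box CACGTG, its variant CACGTT, the D-boxes TTATGTAA and TTACGTAA, the ROR element cores TAGGTCA and TGGGTCA, and the CREB element TGACGTCA. No match overlapped another in the windows shown. Per3 held TTATGTAA at -205 and at -158 from its start. That word was in 0.938% of the 32851 windows of the table, and 7 windows (0.0213%) held at least 2 matches. Cry1 held CACGTG at -60 and AACGTG, the other strand of CACGTT, at -79. Per1 held CACGTG at -166 and Arntl held TAGGTCA at 31 bases past its start. AACGTG stood at -28 in Nr1d1 and at -166 in Cry2. Of all windows, 7.15% held the E-box, 4.68% its variant, 1.06% a D-box, 6.45% a ROR element core and 1.79% the CREB element. The windows of Nr1d2 and Dbp, window 2 of Per1 and window 1 of Arntl held none of the words. A match is a run of letters and not evidence that a factor binds there.

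Total counts ran from 38211406 to 64477566 per library. Foxp3 averaged 722 CPM (the count relative to the scaled library total) in Treg and 22.3 to 28.6 CPM in the 4 naive groups. Cd5 averaged 148 CPM in fresh CD5lo and 982 CPM in fresh CD5hi cells, and 94.5 and 461 CPM after rest. The labels describe every library as pooled from both sexes, which the reads do not bear out. In the 8 fresh libraries 4 Y-linked genes summed to 366 to 405 CPM, and Xist did not exceed 0.721 CPM. Among rested and Treg libraries replicate 3 alone held Y-linked reads, and in the others Xist stood at 755 to 1740 CPM and the Y-linked sum did not exceed 0.149 CPM. Sex by these reads thus changed along with rest, and between fresh naive cells and Treg, in every replicate but replicate 3. Some results are therefore also given with replicate 3 alone, whose Y-linked reads match those of the fresh libraries. These are Per2, Per3 and, in CD5lo cells, Cry2 with rest, and in Treg Per1 against CD5hi and Nr1d1 against CD5lo cells. For the other genes no such size is given, and the part of sex in their differences was not tested. A lone library has no spread of its own, and it is assumed there to vary like the libraries of the other groups, so these values are given as sizes only. Counts on markers of other cells also moved with rest. The 5 macrophage and monocyte markers in the table summed to 14.4 to 19.5 CPM in fresh CD5lo and 5.75 to 8.09 CPM in rested CD5lo libraries, and to 14.6 to 17.2 and 5.41 to 9.01 CPM in the same states of CD5hi cells. None of the 5 was at 0 throughout a group. The 3 red cell markers summed to 15.5 to 54.2 CPM in fresh and 0 to 8.62 CPM in rested naive libraries. Their part in the clock results was not tested. In RNA from whole populations, fewer cells of a type and less RNA per cell cannot be told apart.

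After 22 h of rest, 8 of the 10 clock transcripts differed from fresh cells in each CD5 group, and in the same directions in both. Per3, Cry1, Arntl, Nr1d1, Nr1d2, Dbp and Bhlhe40 rose, Per2 fell, and Per1 and Cry2 did not pass the test. The CD5 groups are not independent repeats of each other, since their same-numbered libraries deviated together within a state. Rest changed much of the transcriptome, since edgeR's quasi-likelihood test with Benjamini-Hochberg adjustment called 54.3% of all tested genes in CD5lo cells (26.9% higher, 27.3% lower) and 52.4% in CD5hi cells (26.2% higher, 26.2% lower). The median log2 change of the clock genes was 0.59 in CD5lo and 0.52 in CD5hi cells, against -0.01 and 0.00 over all tested genes. In absolute size the medians were 0.65 and 0.78 for the clock genes and 0.29 and 0.28 for all. The clock genes were chosen with earlier results of these data known, so these medians describe them and are no test. For each of the 8 genes, no rested library overlapped a fresh one of the same CD5 group. Such a gap was found upward in 24.1% of all genes in CD5lo and 22.6% in CD5hi cells, and downward in 24.0% and 23.1%. All 8 kept their direction and their call in each of the 18 alternatives computed per CD5 group, of which the one with rested replicate 3 alone takes its spread from the other groups.

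**Figure D1:**
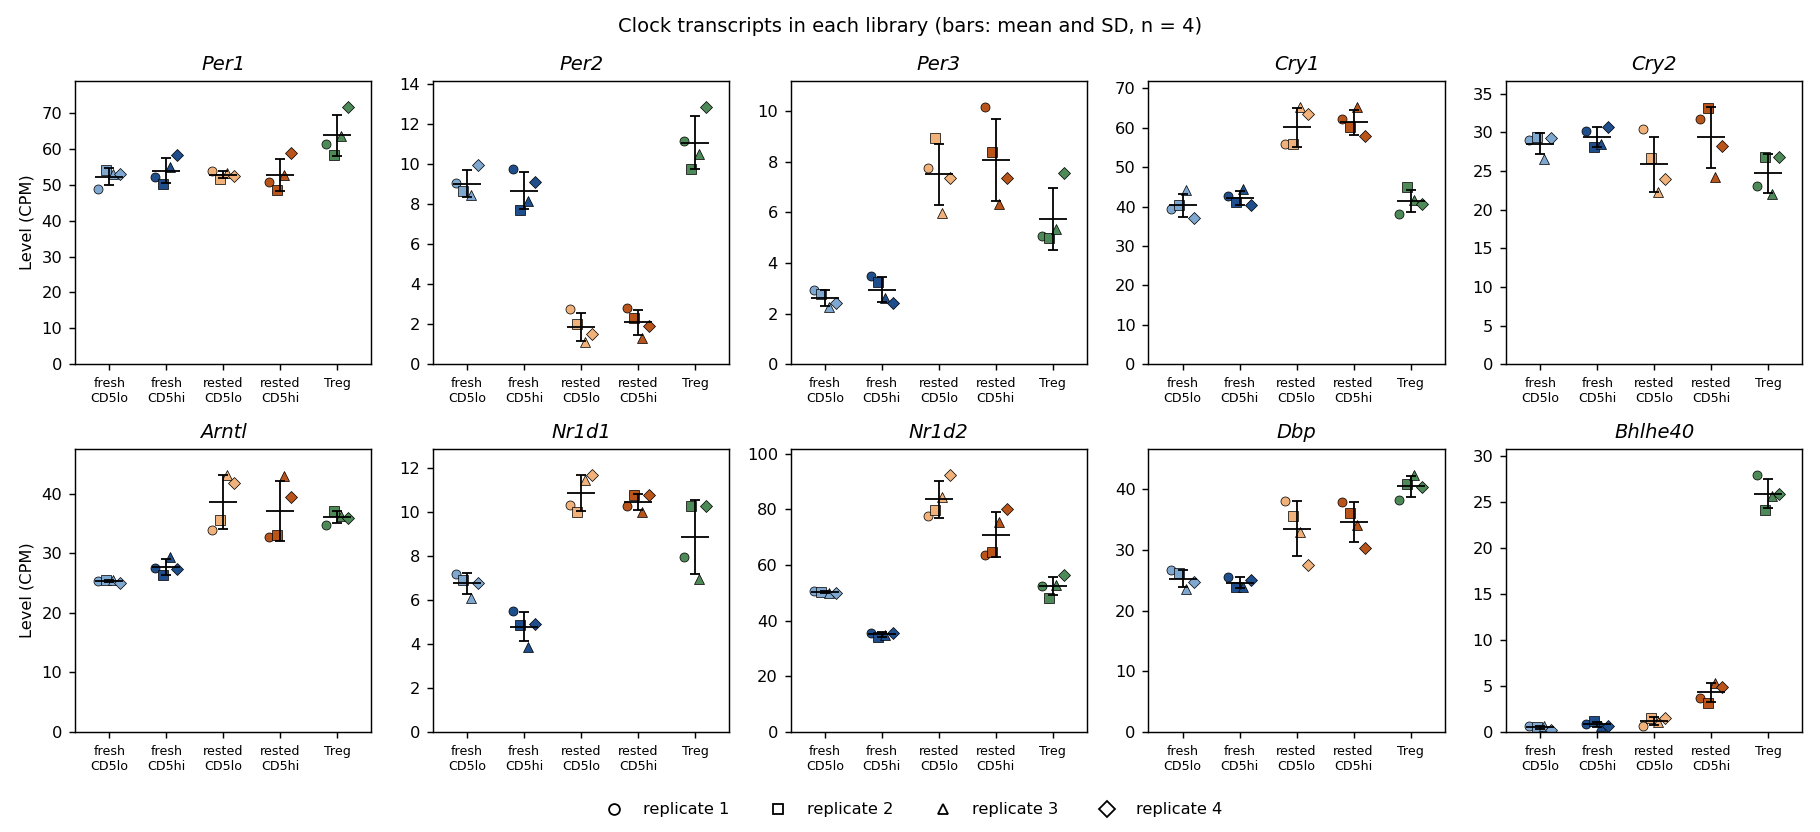
Level of each clock transcript in CPM (vertical axes, starting at 0) in the 20 libraries by group. Symbols mark the replicate number, and bars the mean and SD of 4 libraries. Per2 stood below 3 CPM in every rested library and above 7 CPM in every fresh one. Per3 was higher in every rested library than in any fresh naive one, while Treg replicate 4 (7.57 CPM) lay inside the rested range.

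The period genes went 3 ways. Per1 read 48.7, 54.0, 53.1 and 53.0 CPM in the fresh CD5lo libraries (replicates 1 to 4) and 53.7, 51.6, 53.4 and 52.4 CPM in the rested ones. Fresh CD5hi libraries had 52.2, 50.3, 54.9 and 58.3 CPM and rested CD5hi libraries 50.7, 48.5, 52.8 and 58.9 CPM. The groups overlapped throughout, and the log2 change with rest was 0.02 ± 0.07 (SE) in CD5lo and -0.03 ± 0.07 in CD5hi cells (edgeR adjusted p = 0.863 and 0.714).

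Per2, the other period gene with an acute response, fell. It stood at 9.06, 8.66, 8.45 and 9.99 CPM in fresh CD5lo libraries and at 2.78, 2.02, 1.11 and 1.53 CPM in rested ones, from 45 to 135 counts. Fresh CD5hi libraries had 9.77, 7.71, 8.16 and 9.12 CPM and rested CD5hi libraries 2.81, 2.31, 1.32 and 1.92 CPM. In both CD5 groups rested replicate 3 was the lowest library and replicate 1 the highest. Per2 fell by 2.27 ± 0.21 on the log2 scale in CD5lo cells, a 4.84-fold decrease (edgeR adjusted p = 9.35e-09). It fell by 2.06 ± 0.21 in CD5hi cells, 4.18-fold (adjusted p = 4.02e-08). With rested replicate 3 alone it fell by 3.01 and 2.70.

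Per3, which is the least needed of the period genes for rhythm, rose. Fresh CD5lo libraries read 2.94, 2.79, 2.25 and 2.43 CPM and rested CD5lo libraries 7.77, 8.94, 5.99 and 7.35 CPM. In CD5hi cells the fresh libraries read 3.47, 3.25, 2.63 and 2.43 CPM and the rested ones 10.2, 8.38, 6.34 and 7.38 CPM. The lowest rested library stood above the highest fresh library in both cases. The log2 change was 1.53 ± 0.17 in CD5lo cells (2.88-fold, edgeR adjusted p = 2.29e-07) and 1.46 ± 0.17 in CD5hi cells (2.75-fold, adjusted p = 4.41e-07). Replicate 3 alone gave 1.21 and 1.13.

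The ratio of Per3 to Per2 counts within a library does not depend on how libraries are scaled. It was chosen after the values were seen. The ratio lay between 0.243 and 0.325 in fresh CD5lo, 0.266 and 0.421 in fresh CD5hi, and, after rest, 2.79 and 5.40 in CD5lo and 3.62 and 4.81 in CD5hi libraries. Fresh cells thus had fewer Per3 than Per2 counts in 8 of 8 libraries, and rested cells had more in 8 of 8. The mean log2 ratio differed by 3.88 in CD5lo cells (14.7-fold) and by 3.55 in CD5hi cells (11.7-fold). Treg lay between them, from 0.455 to 0.588, and differed from fresh CD5lo by 0.84 and from fresh CD5hi by 0.61. These values describe genes already seen to move apart and are given with no test.

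**Figure D2:**
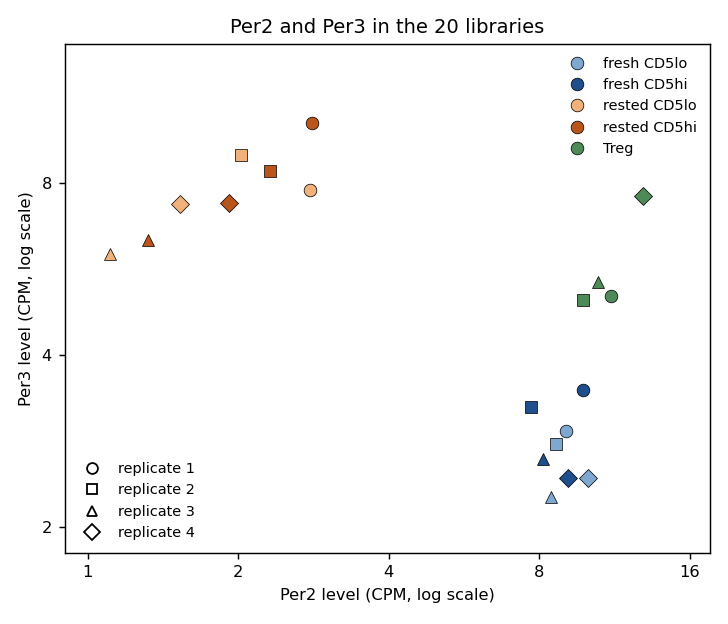
Per2 (horizontal axis) against Per3 (vertical axis) in CPM on log scales, with 1 point per library, the colour for the group and the shape for the replicate number. The 8 rested libraries lie at the upper left, the 8 fresh naive libraries at the lower right, and Treg above the fresh cells at similar Per2.

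The 2 cryptochromes, which carry most of the repression in the loop, did not move together. Cry1 rose from 39.4, 40.5, 44.1 and 37.2 CPM in fresh to 55.9, 55.9, 65.3 and 63.4 CPM in rested CD5lo libraries. In CD5hi cells it rose from 42.7, 41.1, 44.4 and 40.5 to 62.3, 60.2, 65.3 and 57.9 CPM. No rested library reached down to the fresh range. Its log2 change was 0.58 ± 0.07 in CD5lo (edgeR adjusted p = 2.97e-07) and 0.54 ± 0.07 in CD5hi cells (adjusted p = 7.85e-07).

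Cry2 averaged 28.6 ± 1.37 CPM (SD, n = 4) in fresh CD5lo, 29.4 ± 1.28 in fresh CD5hi, and after rest 25.9 ± 3.55 in CD5lo and 29.4 ± 3.96 in CD5hi cells. Its rested libraries scattered widely, from 22.3 to 30.5 CPM in CD5lo and from 24.3 to 33.1 CPM in CD5hi cells. The change with rest was -0.14 ± 0.10 in CD5lo (edgeR adjusted p = 0.221) and 0.00 ± 0.10 in CD5hi cells (adjusted p = 0.994). With rested replicate 3 alone it was -0.34 in CD5lo cells. With replicates 3 and 4 alone it was -0.29 ± 0.09 (adjusted p = 0.00812). Leaving out rested CD5lo replicate 1 gave -0.23 ± 0.09 (adjusted p = 0.042). Both of these passed the test. Replicates 3 and 4 were, however, the lowest rested CD5lo libraries for Cry2 (22.3 and 24.0 CPM), and replicate 1 was the highest (30.5 CPM). At the other end of the 18 alternatives the change was -0.0045. The CD5lo result therefore depends on the libraries used.

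Arntl, the activator of the loop, rose. It read 25.3, 25.5, 25.4 and 25.1 CPM in fresh CD5lo libraries, a spread under 1 CPM, and 33.9, 35.6, 43.2 and 41.7 CPM in rested ones. Fresh CD5hi libraries had 27.5, 26.3, 29.4 and 27.3 CPM and rested CD5hi libraries 32.7, 33.1, 42.9 and 39.4 CPM. Rested replicates 3 and 4 were the higher pair in both CD5 groups. In log2 terms the change was 0.61 ± 0.08 in CD5lo (edgeR adjusted p = 2.32e-06) and 0.42 ± 0.08 in CD5hi cells (adjusted p = 0.000179).

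Both nuclear receptor genes, whose products repress Arntl, rose together with it. Nr1d2 stood at 50.6, 50.5, 50.1 and 49.8 CPM in fresh CD5lo and at 77.6, 79.9, 84.5 and 92.5 CPM in rested CD5lo libraries. In CD5hi cells it went from 35.6, 34.0, 34.9 and 35.8 to 63.5, 64.8, 75.3 and 80.2 CPM. The fresh libraries lay close together and the rested ones well above them. Its log2 change was 0.74 ± 0.07 in CD5lo (1.67-fold, edgeR adjusted p = 1.74e-08) and 1.02 ± 0.07 in CD5hi cells (2.02-fold, adjusted p = 1.23e-10).

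Nr1d1 was lower in level and moved alike. Fresh CD5lo libraries read 7.20, 6.94, 6.13 and 6.80 CPM and rested ones 10.3, 10.0, 11.5 and 11.7 CPM. Fresh CD5hi libraries read 5.52, 4.89, 3.88 and 4.93 CPM and rested ones 10.3, 10.8, 10.0 and 10.8 CPM. The log2 change was 0.69 ± 0.12 in CD5lo (edgeR adjusted p = 5.71e-05) and 1.13 ± 0.12 in CD5hi cells (adjusted p = 1.27e-07). In the GENCODE M21 annotation of GRCm38, exons of Nr1d1 share 263 bases with Thra, a thyroid hormone receptor gene on the opposite strand. Thra averaged 32.3 and 31.4 CPM in fresh and 64.4 and 60.1 CPM in rested CD5lo and CD5hi cells. The strand setting of the counting is not given in the sources used here, and the part of Thra reads in the Nr1d1 count was not tested.

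Dbp, a direct target of the ARNTL and CLOCK pair, rose from 26.7, 26.2, 23.5 and 24.8 CPM in fresh to 38.1, 35.5, 33.0 and 27.6 CPM in rested CD5lo libraries. In CD5hi cells it rose from 25.6, 23.9, 23.9 and 25.1 to 37.9, 36.2, 34.1 and 30.3 CPM. Replicate 4 was the lowest rested library in both CD5 groups and stood closest to the fresh range. The log2 change was 0.41 ± 0.08 in CD5lo (edgeR adjusted p = 0.000235) and 0.49 ± 0.08 in CD5hi cells (adjusted p = 3.42e-05). Exons of Dbp share 539 bases with Sphk2 on the opposite strand, which averaged 71.7 and 70.2 CPM in fresh and 84.1 and 76.9 CPM in rested CD5lo and CD5hi cells. Its part in the Dbp count was not tested.

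Bhlhe40 was the least expressed clock gene in fresh naive cells and was counted 12 to 55 times per fresh library. It read 0.621, 0.527, 0.665 and 0.233 CPM in fresh CD5lo and 0.680, 1.5, 1.09 and 1.57 CPM in rested CD5lo libraries, the lowest of which barely cleared the fresh range. In CD5hi cells it went from 0.841, 1.24, 0.638 and 0.699 to 3.77, 3.22, 5.39 and 4.94 CPM. The log2 change was 1.24 ± 0.29 in CD5lo (edgeR adjusted p = 0.00114) and 2.36 ± 0.25 in CD5hi cells (adjusted p = 9.04e-08). Treg, where Bhlhe40 is far higher, have markers that moved with rest as well. The 5 Treg markers summed to 57.6 to 84.9 CPM in fresh and 278 to 317 CPM in rested naive libraries, with none at 0 throughout a group. Il2ra, Ctla4 and Tnfrsf18 were higher after rest in both CD5 groups. Ikzf2 went from 1.75 to 2.07 CPM in CD5lo cells and down from 9.63 to 5.18 CPM in CD5hi cells. Foxp3 itself averaged 22.3 and 24.1 CPM before and 23.3 and 28.6 CPM after rest in CD5lo and CD5hi cells. The part of Treg in the Bhlhe40 counts of naive cells was not tested.

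**Figure D3:**
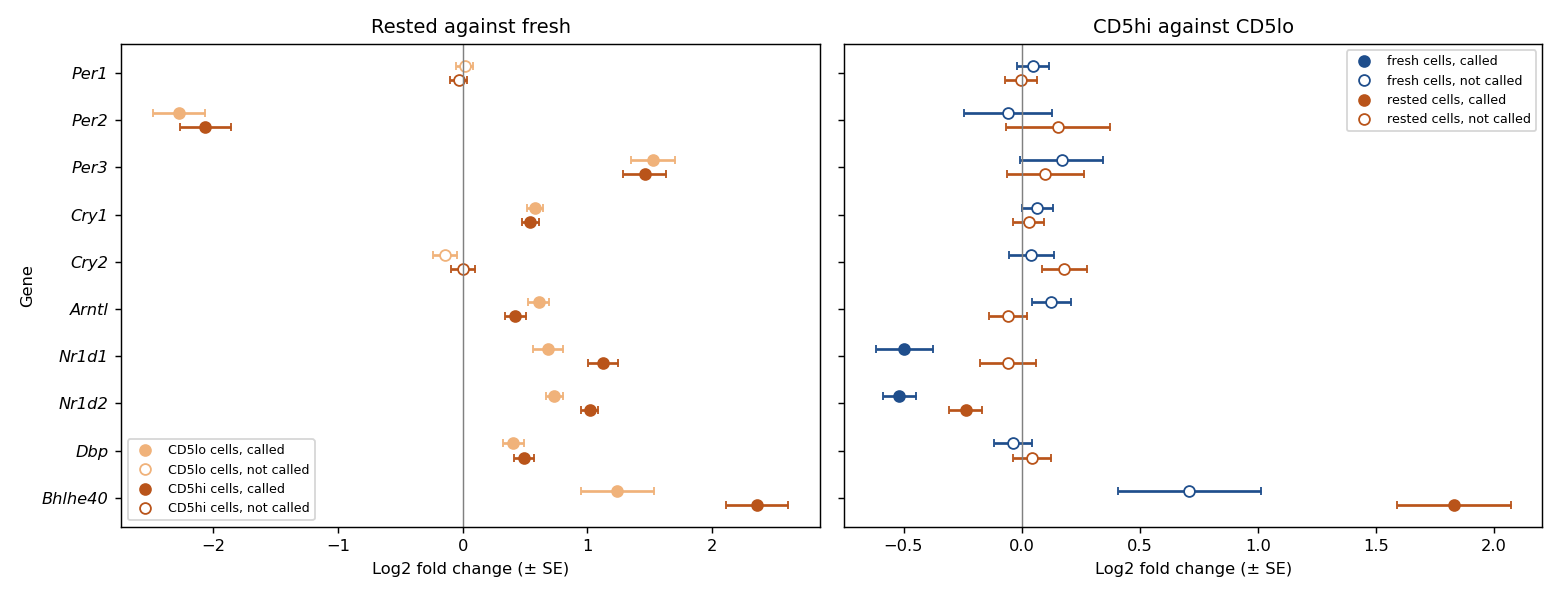
Log2 fold change with its SE for each clock gene, from rested minus fresh cells (left) and from CD5hi minus CD5lo cells (right). Filled points passed an adjusted p of 0.05 in edgeR and open points did not. On the left Per2 alone among the filled points stands below 0, by 2.27 and 2.06, and on the right fresh Nr1d1 and Nr1d2 lie near -0.50 and -0.52.

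Between CD5hi and CD5lo cells only the nuclear receptors and Bhlhe40 differed in the unpaired edgeR fit. In fresh cells 2 of the 10 were lower in CD5hi and none was higher, where 11.5% of all genes were called (6.86% higher, 4.59% lower). Nr1d2 averaged 35.1 ± 0.815 CPM in CD5hi against 50.2 ± 0.373 CPM in CD5lo cells, a log2 difference of -0.52 ± 0.07 (edgeR adjusted p = 1.43e-05). Nr1d1 averaged 4.81 ± 0.680 against 6.77 ± 0.458 CPM, a difference of -0.50 ± 0.12 (adjusted p = 0.00792). Neither gene's fresh libraries overlapped between the CD5 groups, a gap found downward in 9.40% of all genes. Thra, the overlapping gene, was 31.4 against 32.3 CPM in the same cells. The 6 CD8 T and NK cell markers summed to 15.5 to 18.0 CPM in fresh CD5hi and 47.0 to 49.0 CPM in fresh CD5lo libraries. Cd8b1 averaged 7.71 and 31.1 CPM and Klrd1 8.29 and 14.9 CPM of these, with Cd8a under 1 CPM in both groups and Ncr1 at 0 in CD5hi cells. Their part in these differences was not tested.

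Arntl stood the other way in fresh cells, at 27.6 ± 1.32 CPM in CD5hi against 25.3 ± 0.204 CPM in CD5lo cells, with no overlap between libraries (11.0% of all genes had such a gap upward). The difference of 0.13 ± 0.08 did not pass (edgeR adjusted p = 0.434) unless libraries of the same replicate number were paired, when it was 0.13 ± 0.04 (adjusted p = 0.0499). Pairing raised the calls over all genes from 1524 to 2806. The other 7 clock genes did not pass either way in fresh cells. The widest of their differences was in Bhlhe40, at 0.71 ± 0.30 (adjusted p = 0.162).

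In rested cells 1 clock gene was higher in CD5hi cells and 1 was lower, where 8.20% of all genes were called (4.74% higher, 3.46% lower). Bhlhe40 averaged 4.33 ± 1.01 CPM in CD5hi against 1.21 ± 0.412 CPM in CD5lo cells, a log2 difference of 1.83 ± 0.24 (edgeR adjusted p = 1.56e-05). Its libraries did not overlap, a gap found upward in 5.24% of all genes and downward in 5.02%. Nr1d2 was still lower in CD5hi cells, at 71.0 ± 8.13 against 83.6 ± 6.56 CPM, by 0.24 ± 0.07 on the log2 scale (adjusted p = 0.0366), but the libraries overlapped. Its call was lost in 8 of 17 alternatives, among them each fit without rested CD5lo replicate 3 (adjusted p = 0.103) or 4 (0.182) or without rested CD5hi replicate 1 (0.182) or 2 (0.177). With same-numbered libraries paired, Nr1d2 differed by -0.24 ± 0.04 (adjusted p = 0.000204) and Cry2 by 0.18 ± 0.05 (adjusted p = 0.0209), while the calls over all genes went from 1092 to 2372. Nr1d1 stood at 10.5 ± 0.383 CPM in CD5hi and 10.9 ± 0.827 CPM in CD5lo cells, a difference of -0.06 ± 0.12 (adjusted p = 0.884).

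Whether rest acted differently in the 2 CD5 groups was tested as the CD5hi-to-CD5lo difference after rest minus that before. None of the 10 genes was called in edgeR, where 0.451% of all genes were (0.113% higher, 0.338% lower), and DESeq2 called 0 as well. At an unadjusted p under 0.05 there were 3, Nr1d1 (0.44 ± 0.17, adjusted p = 0.562), Nr1d2 (0.28 ± 0.10, adjusted p = 0.43) and Bhlhe40 (1.12 ± 0.39, adjusted p = 0.42). With libraries paired by replicate number within fresh and within rested cells, Nr1d2 passed (0.28 ± 0.05, adjusted p = 0.00757), as did Nr1d1 (0.44 ± 0.11, adjusted p = 0.045), and the calls over all genes went from 60 to 354. Bhlhe40 did not pass (1.09 ± 0.38, adjusted p = 0.172).

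Fresh Treg had more Bhlhe40, Per3, Dbp, Arntl, Per1 and Nr1d1 than fresh cells of either CD5 group, and more Nr1d2 than CD5hi cells. Both comparisons and those of rested cells share the fresh libraries. Against CD5lo cells 6 of the 10 were higher and none was lower, where 58.5% of all genes were called (29.2% higher, 29.4% lower). Against CD5hi cells 7 were higher and 1 was lower, where 54.2% were called (27.5% higher, 26.6% lower). Treg libraries lay above every fresh CD5lo library for 5 clock genes and above every fresh CD5hi library for 8. Among all genes 28.1% and 27.2% had such a gap upward, and 28.4% and 26.7% had one downward. The 5 B cell markers summed to 23.0 to 25.0 CPM in Treg and 3.33 to 5.11 CPM in fresh naive libraries, mostly from Cd79b at 17.2 CPM, with none at 0 throughout a group. Their part in the Treg differences was not tested.

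Bhlhe40 read 28.0, 24.2, 25.7 and 25.9 CPM in the Treg libraries, from 1143 to 1645 counts. It was 5.65 ± 0.27 higher on the log2 scale than in fresh CD5lo (edgeR adjusted p = 5.43e-14) and 4.94 ± 0.25 higher than in fresh CD5hi cells (adjusted p = 2.9e-13). All Treg libraries lay above 24 CPM and no naive library reached 5.4 CPM. Per3 read 5.07, 4.99, 5.36 and 7.57 CPM, with a mean between those of fresh and rested naive cells and replicate 4 inside the rested range, and log2 differences of 1.14 ± 0.17 (adjusted p = 7.64e-06) and 0.97 ± 0.17 (adjusted p = 5.95e-05). Dbp read 38.3, 40.9, 42.4 and 40.5 CPM, with differences of 0.68 ± 0.08 (adjusted p = 2.5e-07) and 0.72 ± 0.08 (adjusted p = 1.36e-07). Arntl read 34.7, 37.1, 36.3 and 35.9 CPM, with differences of 0.51 ± 0.08 (adjusted p = 1.46e-05) and 0.38 ± 0.08 (adjusted p = 0.000408). Dbp was higher in Treg than in any fresh or rested naive library, while Arntl lay within the rested range.

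Per1 was higher in Treg by a small step. It read 61.4, 58.4, 63.5 and 71.7 CPM, 0.29 ± 0.07 above fresh CD5lo (edgeR adjusted p = 0.000894) and 0.24 ± 0.07 above fresh CD5hi cells (adjusted p = 0.00435). With Treg replicate 3 alone the second value was again 0.24. Per2 read 11.2, 9.78, 10.5 and 12.9 CPM and its differences of 0.29 ± 0.19 and 0.35 ± 0.19 did not pass (adjusted p = 0.186 and 0.121). With only the compared groups in the fit they were 0.31 ± 0.10 and 0.36 ± 0.10 and passed (adjusted p = 0.0111 and 0.00722). Cry1 averaged 41.4 ± 2.82 CPM, within 0.04 ± 0.07 of fresh CD5lo on the log2 scale (adjusted p = 0.633) and -0.03 ± 0.07 from fresh CD5hi cells (adjusted p = 0.754).

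Nr1d2 averaged 52.5 ± 3.29 CPM in Treg, 0.58 ± 0.07 above fresh CD5hi (edgeR adjusted p = 3.96e-07) and 0.06 ± 0.07 above fresh CD5lo cells (adjusted p = 0.455). Nr1d1 read 7.97, 10.3, 6.97 and 10.3 CPM, which was 0.89 ± 0.12 above fresh CD5hi (adjusted p = 2.39e-06) and 0.39 ± 0.12 above fresh CD5lo cells (adjusted p = 0.00795). Replicate 3 was its lowest Treg library, and on that library alone the difference from CD5lo was 0.05. Cry2, at 24.7 ± 2.51 CPM, was 0.25 ± 0.10 lower than in fresh CD5hi cells (adjusted p = 0.0324). That call was lost in 6 of 16 alternatives, with adjusted p from 0.0593 to 0.194, among them the fits without fresh CD5hi replicate 1 or 4 and without Treg replicate 1 or 3. Against CD5lo cells Cry2 differed by -0.21 ± 0.10 (adjusted p = 0.0665).

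The order of the clock transcripts by level changed with state. Per kilobase of exon (union of GENCODE M21 exons), Dbp at 13.8 and Cry1 at 13.3 CPM per kb led in fresh CD5lo cells, followed by Nr1d2 at 10.8 and Per1 at 9.28. Per2 stood at 1.55, Per3 at 0.434 and Bhlhe40 at 0.161 CPM per kb. In rested CD5lo cells Cry1 led at 19.9, before Dbp at 18.3 and Nr1d2 at 17.9, and Per2, at 0.319 CPM per kb, was the lowest of the 10. In CD5hi cells Cry1 led in both states, at 13.9 before Dbp at 13.4 when fresh and at 20.3 before 18.8 after rest. Per2 was the lowest in rested CD5hi cells as well, at 0.358 CPM per kb. In Treg Dbp led at 22.1 and Bhlhe40, at 8.19 CPM per kb, stood above Cry2 at 5.69. Over the 5 groups the highest mean exceeded the lowest 50.7-fold for Bhlhe40, 5.95-fold for Per2 and 3.10-fold for Per3. For Cry2 and Per1 the span was 1.19-fold and 1.22-fold.

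Of the other genes of the core loop and the DBP family, 8 of 11 in the table were tested. With rest 3 rose in CD5lo cells and none fell, and in CD5hi cells 3 rose and 1 fell, shares no higher than the 54.3% and 52.4% called over all genes. Nfil3, the repressor at D-boxes, rose from 1.19 ± 0.240 to 2.43 ± 0.136 CPM in CD5lo cells, by 1.04 ± 0.18 on the log2 scale (edgeR adjusted p = 6.78e-05). In CD5hi cells it rose by 1.27 ± 0.19 (adjusted p = 8.29e-06). Rora, which activates at the elements that NR1D proteins occupy, rose by 0.64 ± 0.12 (adjusted p = 0.000169) and 0.53 ± 0.13 (adjusted p = 0.00173). Clock, the partner of ARNTL, rose in CD5lo cells from 47.3 ± 2.88 to 52.8 ± 1.94 CPM (0.16 ± 0.06, adjusted p = 0.0297). In CD5hi cells its change of 0.08 ± 0.06 did not pass. Gm129, listed in RefSeq as Ciart and encoding a repressor of the loop, rose in CD5hi cells by 0.66 ± 0.24 (adjusted p = 0.0234) while its libraries overlapped. Npas2, a relative of Clock, fell in CD5hi cells by 1.17 ± 0.38 (adjusted p = 0.014) from 0.908 CPM. Tef and Hlf did not pass in either CD5 group.

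In Treg 6 of these 8 were higher and 1 lower than in fresh CD5lo cells (29.2% and 29.4% of all genes), and 5 were higher and none lower than in fresh CD5hi cells (27.5% and 26.6% of all genes). Against fresh CD5lo cells Nfil3 was 3.62 ± 0.18 higher (edgeR adjusted p = 1.57e-13) at 14.6 ± 0.963 CPM, Rora 2.35 ± 0.12 higher at 13.4 ± 0.899 CPM, and Tef 0.49 ± 0.08 higher at 61.7 ± 5.07 CPM. Hlf reached 2.11 CPM, 2.63 ± 0.31 higher. Between CD5hi and CD5lo cells 1 of the 8 was higher and 3 were lower when fresh, and 2 were higher and 2 lower after rest, where 11.5% and 8.20% of all genes were called. Clock (-0.20 ± 0.06 fresh, -0.28 ± 0.06 rested) and Rora (-0.51 ± 0.13 and -0.61 ± 0.12) were lower in CD5hi cells in both states. Npas2 was higher in both (1.86 ± 0.40 and 1.70 ± 0.49), but from only 9 to 16 counts per fresh and 0 to 10 per rested CD5lo library. Its rested libraries overlapped between the CD5 groups. Tef was lower when fresh (-0.36 ± 0.08), and Gm129 was higher after rest (1.01 ± 0.24). Rorb was listed at 0 in every library, and Bhlhe41 and Arntl2 were too low to be tested.

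**Figure D4:**
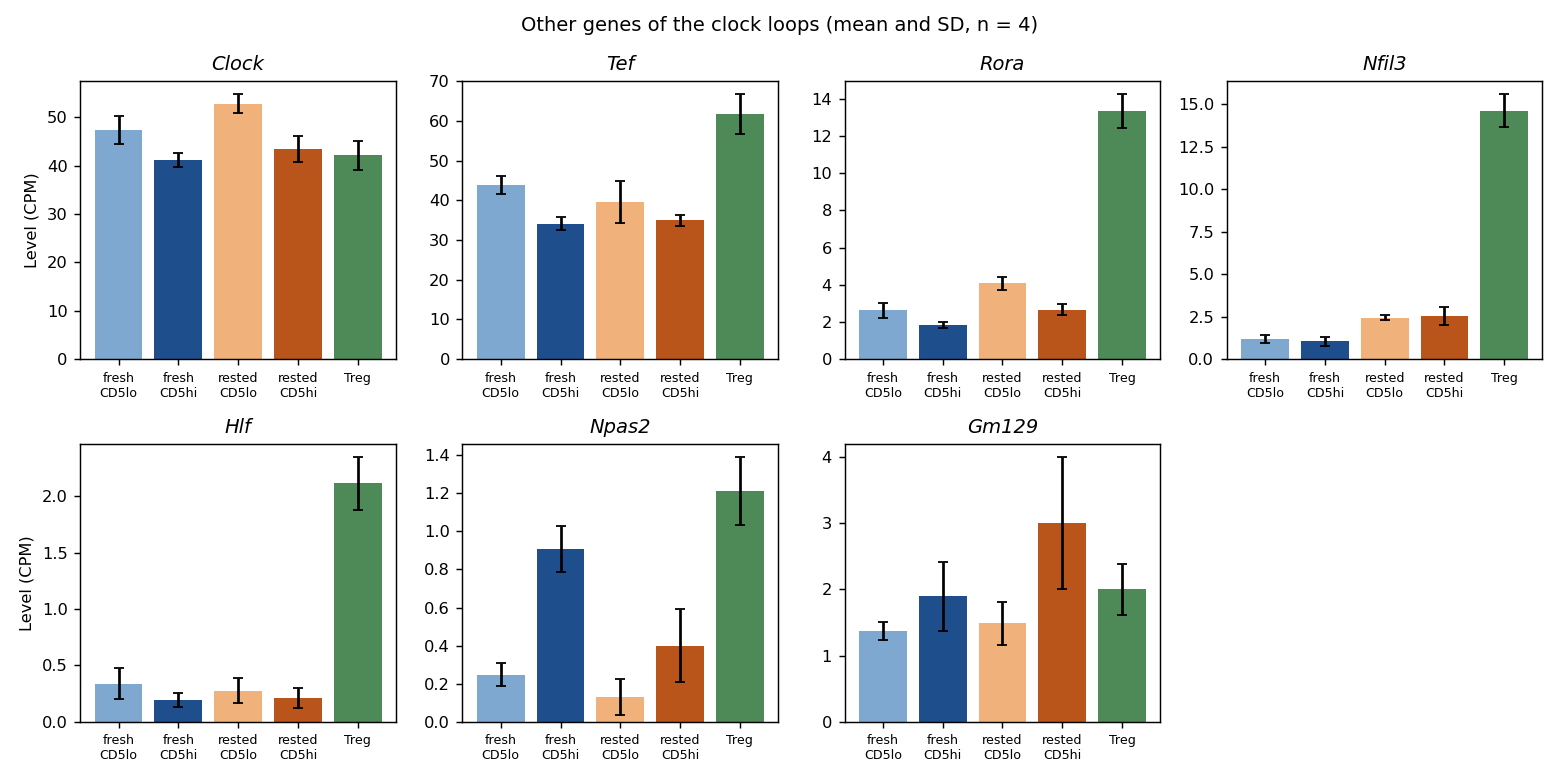
Mean level in CPM (bars from 0, with SD of 4 libraries) of 7 other genes of the clock loops in the 5 groups. Rora, Nfil3, Hlf and Tef are highest in Treg, and Nfil3 and Rora stand higher in rested than in fresh cells of each CD5 group.

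Genes that act on clock proteins or follow the clock elsewhere moved in both directions. Among 15 kinases, ubiquitin ligases and related enzymes, 5 rose and 3 fell with rest in CD5lo cells, and 4 rose and 3 fell in CD5hi cells, shares no higher than those over all genes (54.3% and 52.4%). Prkaa1, a catalytic subunit of AMP kinase, rose by 0.53 ± 0.05 in both (edgeR adjusted p = 2.72e-08 and 3.06e-08). Usp2, a deubiquitinase, fell by 0.88 ± 0.19 and 1.02 ± 0.19. Fbxl21, an F-box protein gene listed here at under 1 CPM in naive cells, fell by 1.82 ± 0.38 and 1.11 ± 0.42. Among 13 chromatin and RNA-binding cofactors, 4 rose and 2 fell in CD5lo and 3 rose and 2 fell in CD5hi cells, shares below the same 54.3% and 52.4%. Timeless, best known for its part in DNA replication, fell by 0.64 ± 0.11 and 0.75 ± 0.11, while Mll1 (0.25 ± 0.09 in both) and Sin3a (0.24 ± 0.05 and 0.18 ± 0.05) rose.

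Among 11 genes that are rhythmic in many tissues, 2 rose and 6 fell in each CD5 group, where 26.9% and 26.2% of all genes rose and 27.3% and 26.2% fell in CD5lo and CD5hi cells. Klf9, a glucocorticoid-responsive factor, rose from 0.822 to 5.25 CPM in CD5lo cells (2.67 ± 0.20, edgeR adjusted p = 3.66e-10) and by 2.14 ± 0.19 in CD5hi cells. Wee1, a mitotic inhibitor kinase, rose by 1.28 ± 0.21 and 1.01 ± 0.20. Klf10, a TGF-beta-induced factor, fell by 1.07 ± 0.09 and 1.25 ± 0.09, and Tspan4 by 1.32 ± 0.22 and 0.70 ± 0.21. Of 3 traffic genes with a daily rhythm, S1pr1, the receptor for exit from lymphoid tissue, rose by 0.70 ± 0.06 and 0.57 ± 0.06, and Cxcr4 and Ccr7 did not pass. Of 7 acute or CREB-responsive genes tested, 5 rose and 1 fell in CD5lo cells, and 4 rose and 1 fell in CD5hi cells, against the same shares of all genes. Crem rose by 1.58 ± 0.09 in both, Fos by 1.4 ± 0.25 and 1.66 ± 0.25 and Dusp1 by 0.88 ± 0.11 and 0.98 ± 0.11, while Sik1 fell by 0.36 ± 0.09 and 0.46 ± 0.09.

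Against fresh CD5lo cells Treg had 5 of the 15 enzymes higher and 3 lower, 1 of the 13 cofactors higher and 5 lower, 5 of the 11 rhythmic genes higher and 2 lower, 2 of 3 traffic genes lower and 3 of 7 acute genes higher. Over all genes 29.2% were higher and 29.4% lower, so the shares called among the enzymes and cofactors did not exceed the 58.5% called over all genes. Between CD5hi and CD5lo cells the lists were counted in the unpaired edgeR fit only. None of the 15 enzymes, 13 cofactors or 7 acute genes was called there, fresh or rested. Of these genes, 5 when fresh and 1 when rested had an unadjusted p under 0.05. Over all genes 11.5% were called between the fresh CD5 groups (6.86% higher, 4.59% lower in CD5hi). Between the rested ones it was 8.20% (4.74% higher, 3.46% lower). Of the 11 rhythmic genes fresh CD5hi cells had 3 higher and 1 lower, Klf10 (0.51 ± 0.09) among the higher. In rested cells 1 was higher, again Klf10 (0.33 ± 0.10, edgeR adjusted p = 0.0381). Among the traffic genes Ccr7 was lower in CD5hi cells in both states (-0.19 ± 0.05 and -0.22 ± 0.05), and S1pr1 was higher when fresh (0.25 ± 0.06).

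Genes with the most similar course over the 20 libraries were sought among 11115 genes of at least 1 CPM, by the root mean square difference of centred log2 values. Nearest to Per2, whose own SD was 1.04, were C920009B18Rik (0.203), Rab37 (0.206) and Pglyrp2 (0.214). Nearest to Per3 (SD 0.639) were Map3k5 (0.205), Fam169b (0.206) and Atp2b1 (0.211). Nearest to Nr1d2 (SD 0.436) were Slc28a2 (0.101), Hsd17b11 (0.141) and Zrsr1 (0.144). Bhlhe40 (SD 1.74) was nearest to Tiam1 (0.391), Tnfrsf4 (0.398) and Ntn4 (0.405). For Cry1 (SD 0.283) it was Aacs (0.0532), for Arntl (SD 0.261) Lpcat1 (0.0801) and for Nr1d1 (SD 0.436) Cbx7 (0.159). For Dbp (SD 0.29) it was Crtap (0.113), for Cry2 (SD 0.162) Map2k7 (0.0891) and for Per1 (SD 0.134) Sh2b1 (0.0627). A small distance means less for a gene whose own SD is small. No clock gene was among the 3 nearest of another.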

How the data were processed

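Polyadenylated RNA of sorted CD4 T cells was sequenced from both ends over 50 bases in 20 libraries. The authors deposited read counts per gene symbol, made, per the submitters' processing notes, with tools that include TopHat2 2.0.11 and featureCounts 1.4.5, on the mm9 build. Neither the annotation nor the setting for strand is given in the sources used here. Of counts from 1 to 10, 62.3 to 66.2% per library were even, so some fragments may have been counted once per mate and counting error is understated.

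The quasi-likelihood test of edgeR 4.0.16 (R 4.3.3) was run on the counts with TMM scaling, the default expression filter and 1 factor of 5 groups (15 residual degrees of freedom). Benjamini-Hochberg adjustment ran over all 13309 genes, which were called at an adjusted p under 0.05. Each SE was taken as the absolute change divided by the root of F, and is unreliable near 0. Alternatives were DESeq2 1.42.0, other scalings and filters, fewer libraries, and the replicate number as a block.

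The clock genes and the lists of related genes were chosen with earlier results of these data known. From each list, up to 4 genes with the largest change with rest and at least 1 CPM in 1 group were named, and all of the core loop list. Cirbp, which this rule takes, passed in neither CD5 group, and 2 other genes it takes enter the counts of their lists but are not reported here. Same-numbered CD5lo and CD5hi libraries deviated together when fresh (r from 0.336 to 0.573 over genes) and when rested (0.342 to 0.78), so replicate numbers pair libraries within a state. Nothing in the labels says how the replicates were kept apart beyond the word biological. P-values measure the spread between these libraries.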

Additional observations from a re-analysis of the deposited data

Results flagged for a closer look

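Within-group spread was examined for the 10 clock genes in the 5 groups, and in 2 of these 50 sets 1 library stood apart from the other 3 by Dixon's criterion, which chance meets in about 1 in 20 sets. Per3 was highest in Treg replicate 4, at 7.57 CPM, while the other Treg libraries lay between 4.99 and 5.36 CPM (gap over range 0.858). Cry2 was lowest in fresh CD5lo replicate 3, at 26.5 CPM, while the others lay between 29.0 and 29.4 CPM (gap over range 0.876).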

How the results depend on the processing

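The 8 calls with rest kept their direction and side of the threshold in each of 18 alternatives per CD5 group, and Nr1d1 and Nr1d2 in fresh CD5hi against CD5lo cells in each of 15. The count of clock genes called between rested CD5hi and CD5lo cells was 1 in place of 2 with library totals only, with no filter, with only the groups compared and with rested replicates 3 and 4 alone. Leaving out 1 library gave 1 to 2. The replicate block called 2 in place of 0 for the difference in the effect of rest. Library totals only, in place of TMM, moved the median of all genes with rest in CD5lo cells to -0.103 (2715 higher and 4613 lower, against 3582 and 3639). The split was 2926 and 4059 (against 3486 and 3492) with rest in CD5hi cells, 825 and 311 (631 and 461) between rested CD5 groups, 4790 and 2709 (3881 and 3910) for Treg against CD5lo and 4487 and 2477 (3663 and 3545) against CD5hi cells. Over all genes, the block gave 2806 calls in place of 1524 between fresh CD5 groups, 2372 in place of 1092 between rested ones, and 354 in place of 60 for the difference in the effect of rest, where DESeq2 gave 131 and rested replicates 3 and 4 alone 40. Leaving out 1 library gave 36 (fresh CD5hi replicate 2) to 90 (rested CD5hi replicate 3) there, and 39 each when rested CD5hi replicate 1, fresh CD5lo replicate 4 or the first of the fresh CD5lo libraries was dropped. Between rested CD5 groups the compared groups alone gave 495 and replicates 3 and 4 alone 639. Treg replicate 3 alone gave 4734 in place of 7208 against CD5hi cells.

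Some changes near 0 turned in sign, all of them without a call in either fit. Ranges here are over fits that left out 1 library each. With rest, Per1 in CD5lo cells went to -0.074 with library totals and ranged from -0.017 to 0.033. In CD5hi cells Per1 went to 0.058 with rested replicates 3 and 4 alone and ranged from -0.092 to 0.0080, and Cry2 went to 0.13 with rested replicates 1 and 2 alone and ranged from -0.066 to 0.072. Between rested CD5 groups Per1 went to 0.0019 with RLE scaling, 0.047 with library totals, 0.0071 with at least 1 CPM in 4 libraries, 0.0045 with the compared groups only, 0.0015 in DESeq2 and 0.081 with replicates 3 and 4 alone. The ranges there were -0.059 to 0.040 for Per1, -0.013 to 0.41 for Per2, -0.024 to 0.19 for Per3, -0.0072 to 0.075 for Cry1, -0.14 to 0.0026 for Arntl and -0.037 to 0.11 for Dbp. Cry1 went to -0.061 with replicates 3 and 4 alone and Nr1d1 to 0.049 with replicates 1 and 2 alone. In the difference of effects Per1 went to 0.031 (replicates 3 and 4) and Cry1 to 0.059 (replicates 1 and 2), and the ranges were -0.20 to 0.024 for Per3, -0.087 to 0.0053 for Cry1 and -0.0019 to 0.14 for Dbp. Cry1 in Treg against CD5hi cells went to 0.060 with library totals and 0.0046 with at least 1 CPM in 4 libraries, and ranged from -0.057 to 0.023. With library totals Cry1 and Nr1d2 passed in Treg against CD5lo cells (0.14 and 0.17). The cause was not tested.

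Between fresh and rested or Treg libraries the replicate numbers do not pair samples. Correlations of same-numbered libraries ran there from -0.198 (replicate 2, fresh CD5lo and Treg) to only 0.157 (replicate 3, fresh CD5hi and rested CD5lo). The replicate block across these groups changed no clock call with rest, gained Cry2 in Treg against CD5lo cells (-0.21, adjusted p = 0.0239), and calls between fresh and rested cells over all genes came to 7410 in CD5lo and 7155 in CD5hi cells. Bhlhe40, with 12 to 55 counts per fresh library, and Per2, with 45 to 135 per rested library, are the values most limited by depth.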

Other observations

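Within the rested cells, replicates 3 and 4 stood apart from replicates 1 and 2 in both CD5 groups for 6 of the 10 clock genes. Arntl and Nr1d2 were higher in replicates 3 and 4, and Per2, Per3, Cry2 and Dbp were lower. Arntl read 41.7 and 43.2 CPM against 33.9 and 35.6 CPM in rested CD5lo, and 39.4 and 42.9 CPM against 32.7 and 33.1 CPM in rested CD5hi libraries. Dbp read 27.6 and 33.0 CPM against 35.5 and 38.1 CPM in CD5lo, and 30.3 and 34.1 CPM against 36.2 and 37.9 CPM in CD5hi libraries. Over all tested genes 16.5% were higher and 17.4% lower in this way. Replicate 3 held Y-linked reads and replicates 1, 2 and 4 held Xist. Over 11126 genes the libraries did not divide in this way in both CD5 groups. In rested CD5lo cells the mean chi-square per gene was 14.9 between replicates 3 and 4 and 46.5 to 76.7 across the division, but in rested CD5hi cells replicates 3 and 4 were the least alike pair (95.9), and replicate 4 was nearer to replicates 1 (27.6) and 2 (35.5). CD5lo and CD5hi libraries of the same number deviate together and are not independent here.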
